A study of Mus musculus with 18 samples.

Results

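The genes described here are 51 transcripts whose levels follow the cell division cycle, taken by symbol from a list of known cycle genes: 24 genes of DNA replication (the S genes), Mki67, and 26 genes of G2 phase and mitosis (the G2M genes). All 51 are among the 32285 genes of each of the 10 mRNA matrices of a single-cell study of stretched mouse skin. A cell that divides first switches on the replication genes, whose promoters are bound by E2F factors, and later the mitotic genes, which are held off in resting cells by the DREAM complex at promoter elements named CHR. Mki67 encodes the proliferation antigen Ki-67, is made through S, G2 and mitosis, and was kept apart from both lists. In skin, division is concentrated in the basal layer of the epidermis, in the growing part of the hair follicle and in the sebaceous gland, while fibroblasts, vessels and nerve sheath cells of adult dermis divide rarely.

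Every mouse had the same operation, in which the back skin was opened near the tail and a passage was made under the skin up to the neck with forceps. Expanded mice (EXP) then received a hydrogel expander, stitched in place near the neck, and control mice (CTRL) received none, so that both arms carry a healing surgical wound. Skin was taken on day 1, 2 or 4, and live cells, which exclude the dye DAPI, were sorted and run on the 10x Chromium 3′ v3.1 kit; the labels give no strain, sex or age. Each arm had 2 libraries on day 1, 2 on day 2 and 1 on day 4, numbered by sequencing round. The titles of the control mRNA sample of day 1 round 2 and of its hashtag sample appear exchanged; the library type and library name in their labels, and the files, give the assignment used here. Each library pooled the mice of 1 arm and round, so p-values measure the spread between pools. Values per library are always given in the order day 1 rounds 1 and 2, day 2 rounds 1 and 2, and day 4.

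The matrices held 2468 to 9115 barcodes and 17726739 to 75470722 unique molecular identifiers (UMIs, counted transcript molecules) per library. After filters on genes, UMIs and mitochondrial share and the removal of 1423 doublets, 45828 cells remained, 28636 control and 17192 expanded, in 1893 to 7959 cells per library. At most 16 cell barcodes were shared by a pair of libraries. Cells were clustered with 447 cell cycle genes, the members included, left out of the clustering, and named from marker lists as "-like" classes; 15 classes were named, 5 clusters kept their number, and 14 of these 20 groups had enough cells in at least 4 libraries per arm to be tested. In most classes the expanded cells held more UMIs than the control cells, with medians of 15842.5 against 11017.5 in fibroblast-like cells and 9615 against 5207 in endothelial-like cells. A share of positive cells rises with depth alone, so each cell was thinned to 2000 UMIs before cells were called S-positive or G2M-positive, which took at least 2 UMIs over the 24 S genes or the 26 G2M genes.

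RefSeq promoters (build GRCm38.p6) were at hand for 43 of the 51 members. The bases before the start of the genes followed through every class are shown here, with any match to the elements named above marked. Capitals mark matches, on either strand, to the CHR (TTTGAA or TTCGAA), to the CCAAT box (CCAAT) and to the E2F site (TTTCCCGC, TTTGGCGC, TTTCGCGC or TTTGCCGC). Both E2F matches of Mcm5 overlap each other and are printed as 1 run.
Mcm5, chr8:75109259-75109508, plus strand: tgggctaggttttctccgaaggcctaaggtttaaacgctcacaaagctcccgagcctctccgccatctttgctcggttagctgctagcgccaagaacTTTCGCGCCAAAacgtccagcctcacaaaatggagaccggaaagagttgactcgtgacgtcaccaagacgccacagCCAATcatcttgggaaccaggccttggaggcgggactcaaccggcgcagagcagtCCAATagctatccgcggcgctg
Pcna, chr2:132253181-132253430, minus strand: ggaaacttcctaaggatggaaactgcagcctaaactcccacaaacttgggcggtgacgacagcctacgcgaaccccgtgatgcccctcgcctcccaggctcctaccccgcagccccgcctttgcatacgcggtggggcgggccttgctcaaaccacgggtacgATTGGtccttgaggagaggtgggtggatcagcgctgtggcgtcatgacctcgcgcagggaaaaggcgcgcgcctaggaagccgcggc
Mki67, chr7:135716380-135716629, minus strand: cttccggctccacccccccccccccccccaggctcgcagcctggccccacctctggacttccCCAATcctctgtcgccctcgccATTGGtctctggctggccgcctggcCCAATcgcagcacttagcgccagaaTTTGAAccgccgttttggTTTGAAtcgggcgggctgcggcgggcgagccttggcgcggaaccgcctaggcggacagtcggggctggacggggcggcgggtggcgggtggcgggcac
Top2a, chr11:99024190-99024439, minus strand: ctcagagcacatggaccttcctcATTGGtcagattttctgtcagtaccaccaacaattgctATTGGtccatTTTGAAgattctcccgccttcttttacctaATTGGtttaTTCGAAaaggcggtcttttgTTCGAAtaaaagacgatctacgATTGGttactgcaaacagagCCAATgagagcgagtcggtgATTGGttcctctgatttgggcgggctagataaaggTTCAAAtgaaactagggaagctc
Cdk1, chr10:69352913-69353162, minus strand: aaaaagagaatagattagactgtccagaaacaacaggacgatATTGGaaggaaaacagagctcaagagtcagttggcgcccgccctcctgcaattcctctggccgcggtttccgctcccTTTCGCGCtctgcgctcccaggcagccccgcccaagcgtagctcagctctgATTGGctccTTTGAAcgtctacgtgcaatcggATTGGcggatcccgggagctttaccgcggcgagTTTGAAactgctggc
Ccnb1, chr13:100786487-100786736, minus strand: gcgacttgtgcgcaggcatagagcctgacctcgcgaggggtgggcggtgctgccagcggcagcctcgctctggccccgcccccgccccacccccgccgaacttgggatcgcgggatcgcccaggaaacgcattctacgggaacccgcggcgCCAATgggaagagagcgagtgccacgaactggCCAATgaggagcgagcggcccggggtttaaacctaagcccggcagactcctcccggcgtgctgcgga
Each run is the 250 bases upstream of the start, read 5′ to 3′. Mcm5, a subunit of the replicative helicase, has 2 E2F matches and 2 CCAAT boxes here, and Pcna, the sliding clamp of the replication fork, has a single CCAAT box. Mki67 has 2 CHR matches and 3 CCAAT boxes. Top2a, the topoisomerase that untangles replicated chromosomes, has 4 CHR matches and 6 CCAAT boxes. Cdk1, the kinase that drives entry into mitosis, has 2 CHR matches, 3 CCAAT boxes and 1 E2F match. Ccnb1, its cyclin partner, has 2 CCAAT boxes and no CHR match in this window.

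Motif matches were counted in both lists. In the window from 250 bases before to 50 after the start, a CHR match was present in 17 of 22 G2M promoters (77.3%), in 5 of 20 S promoters (25%) and in 21.7% of the 27025 genes with a promoter. An E2F match was present in 9 of 20 S promoters (45%), in 1 of 22 G2M promoters (4.55%) and in 2.61% of all genes. The CCAAT box was common to both lists, with 15 of 20 S (75%) and 16 of 22 G2M promoters (72.7%), against 41.1% of all genes. Without the 50 bases after the start, a CHR match was present in 7 of 22 G2M promoters (31.8%), 5 of 20 S promoters (25%) and 19.6% of all genes, so the gap between the lists in this motif rests mostly on the bases after the start. An E2F match was then present in 6 of 20 S promoters (30%), 1 of 22 G2M promoters and 2.16% of all genes. These are matches of letters, and nothing in these data measures binding.

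**Figure D1:**
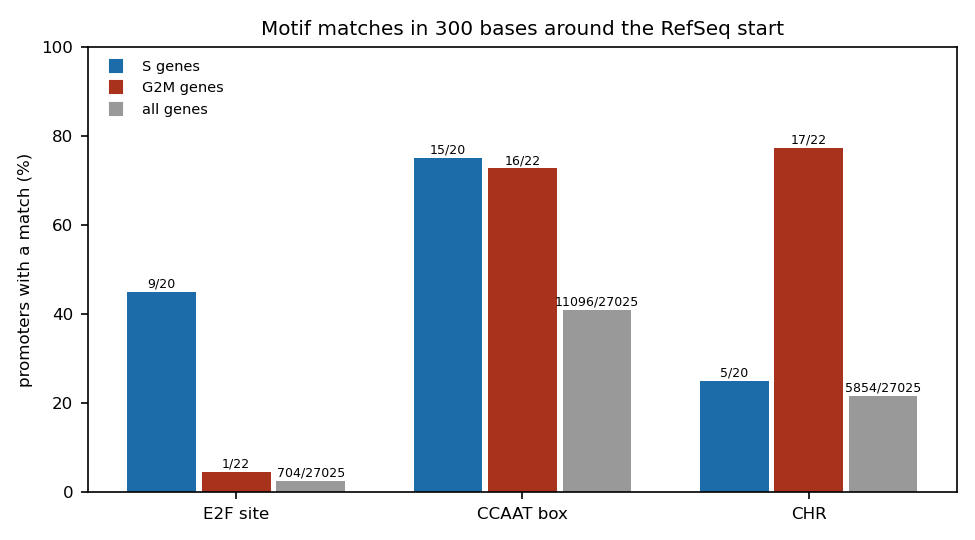
Share of genes (percent, bars from 0) whose promoter, from 250 bases before to 50 after the start, holds each motif, for 20 S genes, 22 G2M genes and all 27025 genes with a promoter. The CHR bar is tallest for G2M genes (77.3%), the E2F bar for S genes (45%), and the CCAAT bars of both lists are alike.

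The summed levels of the members were highest in the lymphoid and epithelial classes. Summed over the list and averaged over libraries of both arms, S gene levels were 949 CPM (UMIs of a gene, scaled to a common total for each library's cells of a class) in T or innate-lymphoid-like cells, 851 CPM in keratinocyte cluster 3 and 732 CPM in keratinocyte cluster 9, against 307 CPM in fibroblast-like and 183 CPM in neutrophil-like cells. Summed G2M levels were 1075 CPM in sebaceous-like cells (n = 6 libraries), 859 CPM in T or innate-lymphoid-like cells and 727 CPM in cluster 9, against 107 CPM in fibroblast-like cells and 71.5 CPM in cluster 7, a fibroblast-related cluster led by Coch, Kera and Fmod. Of the lymphoid sum, Cenpa gave 232, Smc4 141, Top2a 115 and Kif23 81.5 CPM, against 46.6, 117, 90.8 and 18.3 CPM in cluster 9. Kif11, Nusap1, Ndc80 and Nuf2 were also higher in the lymphoid class than in cluster 9. Every other G2M gene was lower in the lymphoid class. The SD over libraries was large, 314 CPM for the G2M sum in T or innate-lymphoid-like cells and 538 CPM in cluster 3, so the order among the highest classes lies within the spread between libraries.

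Some G2M genes did not follow Cdk1 from class to class. In cluster 22 of the T or innate-lymphoid-like class, led by Foxp3, the factor that defines regulatory T cells, 40.8% to 55.9% of thinned control cells were G2M-positive. Kif23, a motor of cytokinesis, averaged 195 CPM there and 18.3 CPM in cluster 9, and Cenpa, the centromeric histone, 186 CPM and 46.6 CPM, whereas Cdk1 averaged 22.6 CPM and 27.6 CPM. In the 3 libraries where cluster 22 held Cdk1 at 0, Kif23 was at 209, 242 and 210.04 CPM and Cenpa at 225, 175 and 229.7 CPM. A G2M-positive call in cluster 22, and in the class that holds it, is therefore not shown to mark a cell in mitosis. Anln, an actin-binding protein of cytokinesis and of the cell cortex, averaged 4.42 CPM in cluster 22, 13.9 CPM in Schwann-like cells and 34.6 CPM in cluster 9.

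Schwann-like, melanocyte-like and cluster 7 cells were among the classes with few G2M-positive cells. Mki67 averaged 134 CPM in cluster 22, 7.94 CPM in Schwann-like cells and 2.72 CPM in cluster 7. In melanocyte-like cells it ranged from 0 to 6.54 CPM in 7 libraries and was at 264 CPM in the expanded library of day 2 round 1, which holds 21 cells of this class and also held Top2a at 376 CPM. Pcna, which also serves DNA repair, averaged 191 CPM in cluster 22 and 118 CPM, 189 CPM and 116 CPM in Schwann-like, melanocyte-like and cluster 7 cells. Slbp, another S gene, averaged 185 CPM in cluster 22 and 68.8 CPM, 124 CPM and 110 CPM in the same order. S-positive calls had a high floor, with 15.8% ± 4.6 of control and 18.3% ± 4.9 of expanded Schwann-like cells (SD, n = 4 libraries each) and 35.9% ± 10.1 of control and 26.98% ± 4.74 of expanded melanocyte-like cells (n = 4 each). G2M-positive calls had a low one, with 4.4% ± 2.0 and 2.7% ± 1.2 in Schwann-like cells and 1.0% ± 0.7 and 1.3% ± 1.3 in cluster 7 (n = 5 each). Median depths before thinning were 2550 and 3816 UMIs in control and expanded Schwann-like cells.

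**Figure D2:**
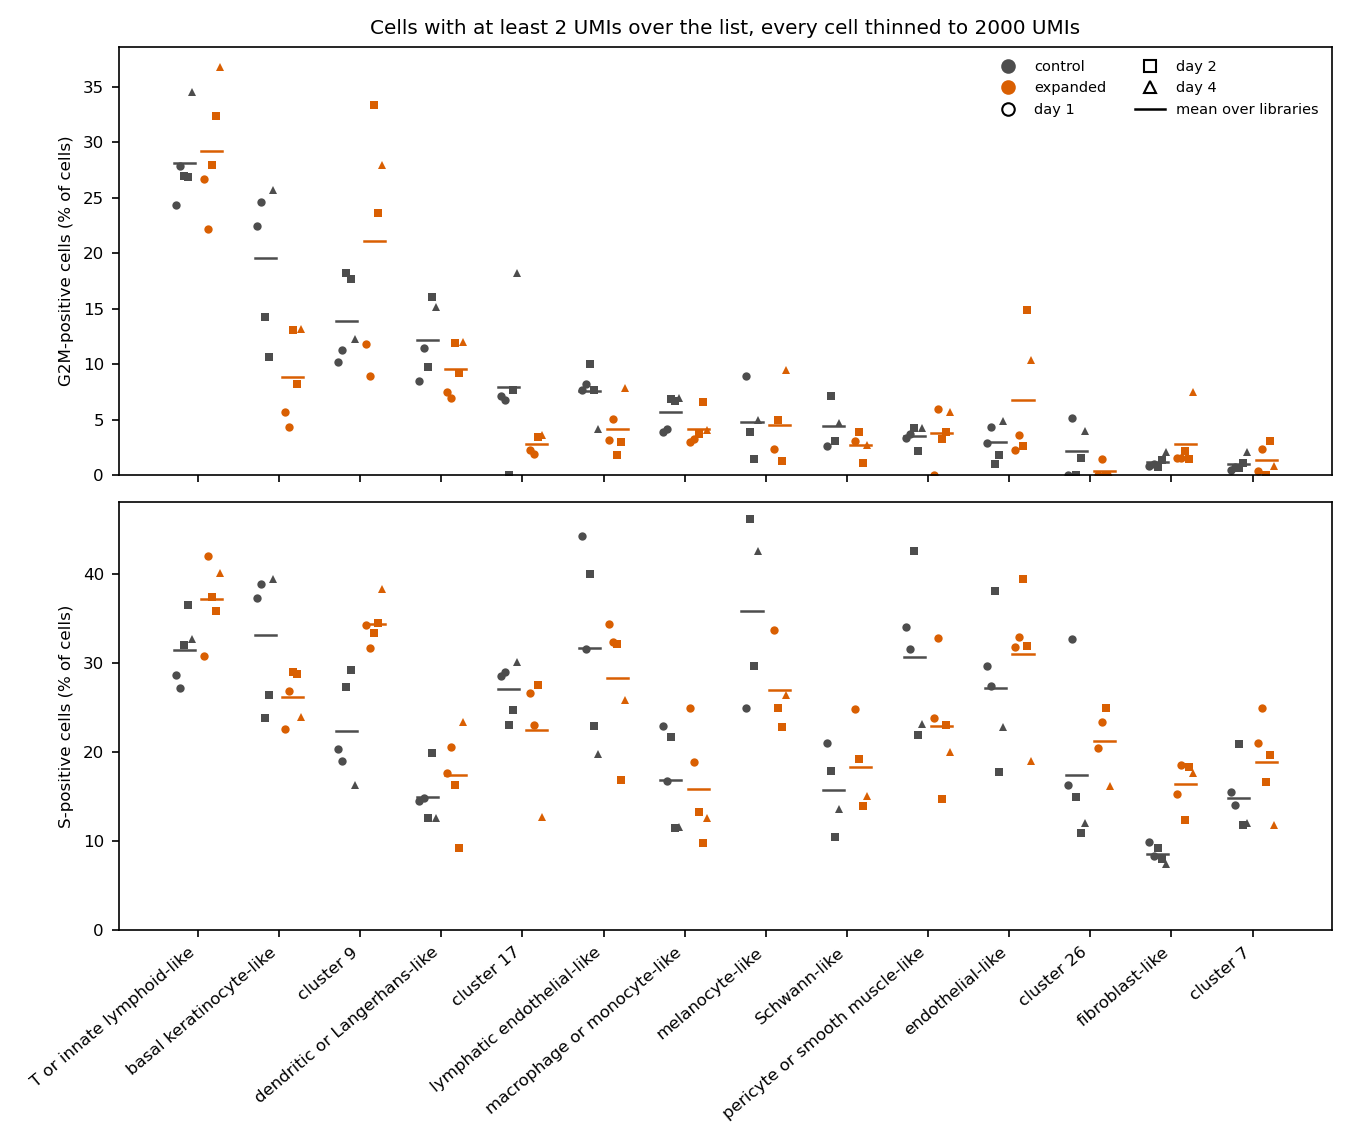
Share of S-positive and of G2M-positive cells (percent) in each class after thinning to 2000 UMIs, with a point per library and the mean of the arm. The S share of cluster 9 and of fibroblast-like cells is higher in every expanded library than in any control library, and the G2M share of cluster 3 (basal-keratinocyte-like) is 19.5% in control and 8.9% in expanded libraries on average.

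Keratinocyte cluster 3 (1095 control and 1639 expanded cells) showed the widest change of the members. It is basal-keratinocyte-like by its markers, all 10 of which it expressed, and was led by Krt24, Lhx2 and Krt15, keratinocyte genes of the follicle. At a finer resolution it holds 689 of the 748 cells of cluster 24, led by Krt25, Krt28 and Krt27, keratins of the inner root sheath. Cluster 3 is therefore called by its number here. In expanded libraries, 15 of the 22 S genes tested fell and none rose, Mki67 fell, and 22 of the 26 G2M genes tested fell and none rose, against 2.87% of the 10636 genes tested that fell. The median log2 fold change, expanded over control, was -0.995 over the S genes and -2.15 over the G2M genes, against 0.03 over all genes tested.

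Among the replication genes of cluster 3, Mcm5 stood at 31.9, 36.9, 18.8, 41.1 and 47.8 CPM in the control libraries and at 10.8, 12.2, 17.6, 18.3 and 18.8 CPM in the expanded ones. The arms met only at the control library of day 2 round 1, which holds 27 cells of this cluster (log2 fold change -1.35, SE 0.18, adjusted p = 0.00363 by edgeR). Pclaf, which binds the Pcna clamp at replication forks, was at 202, 211, 98.7, 89.9 and 233 CPM in control and 8.05, 11.3, 38.5, 15 and 37.9 CPM in expanded libraries. Every control library was above every expanded one, by a factor of over 10 on day 1 (log2 fold change -3.15, SE 0.43, adjusted p = 0.00363 by edgeR). Cdc45, which completes the active helicase, was at 8.5, 10.8, 9.4, 10.52 and 13.1 CPM in control and 2.79, 2.59, 5.02, 2.5 and 3.65 CPM in expanded libraries, again without overlap (log2 fold change -1.74, SE 0.24, adjusted p = 0.00431 by edgeR). All 6 Mcm helicase genes, both subunits of ribonucleotide reductase (Rrm1 and Rrm2) and the thymidylate synthase Tyms were among the 15 that fell. E2f8, a repressor of E2F targets, also fell (log2 fold change -2.82, SE 0.47, adjusted p = 0.00796 by edgeR). Pcna was at 175, 172, 108, 147 and 149.6 CPM in control and 143, 144, 149.9, 136 and 111 CPM in expanded libraries, with full overlap of the arms (log2 fold change -0.15, SE 0.13, adjusted p = 0.521 by edgeR).

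The mitotic genes of cluster 3 were further apart between the arms. Top2a was at 227, 203, 150.3, 93.7 and 213 CPM in control and 22.1, 22, 58.6, 22.5 and 61.2 CPM in expanded libraries. No expanded library reached the lowest control library (log2 fold change -2.35, SE 0.35, adjusted p = 0.00521 by edgeR). Cdk1 was at 48, 40.8, 28.2, 30.1 and 67.6 CPM in control and 4.02, 4.5, 26, 9.15 and 29.8 CPM in expanded libraries. Cdk1 was lower in the expanded library of all 5 pairs of day and round, with overlap between the arms through the expanded library of day 4 (log2 fold change -2.03, SE 0.42, adjusted p = 0.0211 by edgeR). Ccnb1 was at 25.5, 27.2, 4.7, 14.3 and 37.3 CPM in control and 2.63, 1.24, 8.37, 3.33 and 21.6 CPM in expanded libraries, lower in 4 of the 5 pairs (log2 fold change -2.24, SE 0.50, adjusted p = 0.0276 by edgeR). Mki67 was at 158, 152, 51.7, 59.3 and 151 CPM in control and 9.29, 11.3, 52.8, 6.66 and 58.7 CPM in expanded libraries. It was more than 10 times lower in both expanded libraries of day 1, and about level in round 1 of day 2 (log2 fold change -2.36, SE 0.56, adjusted p = 0.0328 by edgeR). The largest falls of the list were those of Bub1, a kinase of the spindle checkpoint (log2 fold change -3.49, SE 0.59, adjusted p = 0.00844 by edgeR), of Kif11, the motor that separates the spindle poles (log2 fold change -2.85, SE 0.44, adjusted p = 0.00597 by edgeR), and of Ccna2, the cyclin of S and G2 (log2 fold change -2.53, SE 0.48, adjusted p = 0.0136 by edgeR). The calls of Bub1, Ccna2 and E2f8 were lost without the expanded library of day 1 round 2 (adjusted p = 0.0515, 0.0687 and 0.0524), that of Cdk1 without this library (adjusted p = 0.091) or either library of day 1 round 1, and that of Ccnb1 without any 1 of the 4 libraries of day 1. The call of Mki67 was lost without any 1 of 8 of the 10 libraries, with adjusted p of 0.05 to 0.127. Aurka, Ccnb2, Cenpa and Ckap2 did not pass the test.

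**Figure D3:**
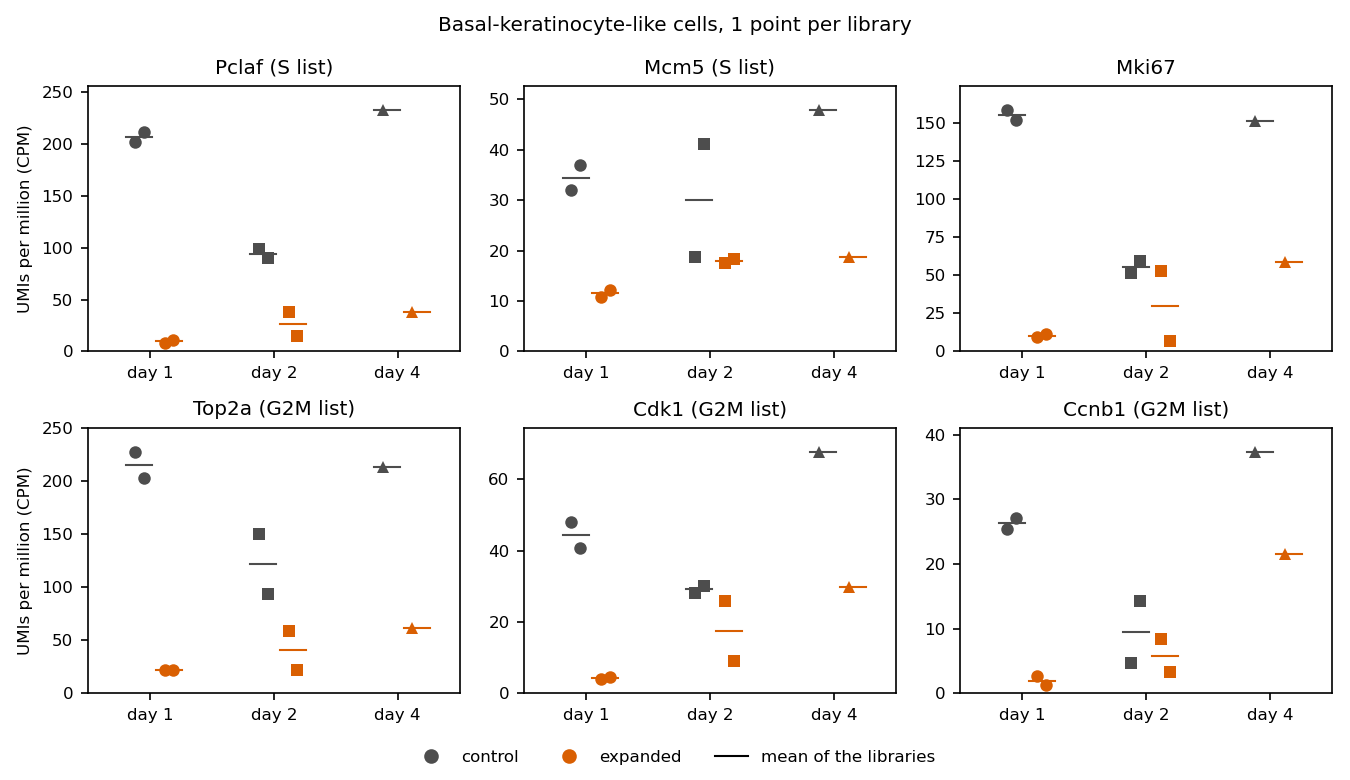
Level (CPM) of 6 members in keratinocyte cluster 3 (basal-keratinocyte-like), with a point per library and a bar for the mean, with the arms side by side on days 1, 2 and 4; round 1 is left and round 2 right. Control points of Top2a and Pclaf lie above all expanded points, and the gap is widest on day 1.

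The fall in cluster 3 was measured mainly on day 1. In a fit with a mean for each arm and day, 14 S genes, Mki67 and all 26 G2M genes fell on day 1, against 4.73% of all genes, with a median log2 fold change of -3.30 over the G2M genes. On day 2 the test called no member (0% of all genes), with 5 S and 6 G2M genes at an unadjusted p under 0.05 and a G2M median of -1.07. On day 4 it called none (0.0658% of all genes), with 13 S and 13 G2M genes at an unadjusted p under 0.05 and a G2M median of -1.14; day 4 has 1 library per arm, whose spread is taken from the other days. The day 2 effect was not shown to differ from the day 1 effect, with 0 members called by edgeR (0% of all genes) and 18 G2M genes at an unadjusted p under 0.05. The day 4 effect was not shown to differ either (0 called, 0.047% of all genes, 21 G2M genes at an unadjusted p under 0.05).

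At matched depth the share of G2M-positive cells in cluster 3 was 22.4, 24.6, 14.3, 10.7 and 25.7% in control and 5.65, 4.33, 13, 8.22 and 13.1% in expanded libraries. It was lower in the expanded library of all 5 pairs, most on day 1, with overlap between the arms on later days. The S-positive share was 33.2% ± 7.5 in control and 26.2% ± 2.9 in expanded libraries (SD, n = 5 each), lower in 3 of 5 pairs. Over single hashed mice, to which 22.1% of the cells of the hashed libraries could be assigned, the expanded share minus the control share was 12.0 points for S, the other direction, and -2.63 points for G2M. Without thinning the shares were 40% in control and 42.1% in expanded libraries for G2M and 74.0% and 86.1% for S, where expanded cells are deeper (median 11216 against 9089 UMIs); 48 control and 46 expanded cells were too shallow to thin. With sums of thinned cells, 2 of 11 S genes, Mki67 and 2 of 5 G2M genes that could be tested fell (0.975% of all genes), Top2a with a log2 fold change of -2.15 (edgeR adjusted p = 0.000897) and Pclaf with -3.24 (edgeR adjusted p = 0.000247). On day 1 alone, 3 of the 11 S genes, Mki67 and all 5 G2M genes fell in thinned sums.

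The makeup of cluster 3 moved with these values. Cluster 24 of the finer resolution made up 31.6%, 48.2%, 51.9%, 26.1% and 53.04% of cluster 3 in the control libraries and 6.76%, 13%, 30%, 20% and 26% in the expanded ones, lower in all 5 pairs. The summed level of 7 hair matrix or sheath markers ranged from 19 to 844 CPM in control and from 29 to 57 CPM in expanded libraries, and all 7 had a lower mean in the expanded arm. That of 8 fibroblast markers ranged from 225 to 6571 CPM in control and from 20 to 2661 CPM in expanded libraries, lower on average for 7; the part of either list in the result was not tested. The tests and shares of cluster 24 that follow use all 748 of its cells, of which 689 lie in cluster 3. Within cluster 24, 9 of 21 S genes and 1 of 26 G2M genes (Ccnb1) fell, against 1.01% of all genes, with medians of -1.32 and -1.61. With the pair of day and round as a block, 12 S genes, Mki67 and 23 G2M genes fell there (4.42% of all genes), and on day 1 alone 12 S genes, Mki67 and 21 G2M genes (4.18% of all genes). G2M-positive cells were 40.8% ± 12.8 of cluster 24 in 4 control libraries and 11.8% ± 4.4 in 3 expanded libraries, without overlap (65.4% and 47.2% unthinned, 54 and 53 cells too shallow, median depths 13324 and 8601 UMIs). Within the remaining large part, cluster 2 of the finer resolution (2041 cells), Pclaf, Mki67, Anln, Cenpe and Cenpf fell and no other member passed the test (0.606% of all genes fell). The S median there was 0.40 and the G2M median -0.83, and the G2M-positive share was 7.2% ± 1.3 in control and 7.1% ± 3.6 in expanded libraries (n = 4 and 5; 25.9% and 40.7% unthinned). In sums over a class, fewer cycling cells and less RNA per cycling cell cannot be told apart.

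Single libraries carry much of the call in cluster 3. The number of members called, 38 in all, was 10 without the expanded library of day 1 round 2, 19 and 23 without the control libraries of day 1 rounds 1 and 2, 20 without the expanded library of day 1 round 1 and 24 without the control library of day 4. Called in every such fit were Cdc45, Clspn, Mcm5, Pclaf, Rrm1, Tyms, Kif11, Ndc80 and Top2a. In cluster 24 the number, 10 in all, was 0 without any 1 of 5 libraries (both control and 1 expanded library of day 1 and both of day 4), 4 without the expanded library of day 1 round 1 or day 2 round 2, 33 without the control library of day 2 round 2 and 38 without the expanded library of day 2 round 1. In cluster 2 of the finer resolution it was 5 in all and ranged from 0 to 4.

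Of 48 tested regulators outside the list (cyclins, CDK inhibitors, E2F and Myb factors and others), 10 fell and none rose in cluster 3, where 2.87% of all genes fell. The number that fell was 0 without the expanded library of day 1 round 2, 1 when the control library of day 1 round 1 was left out, 2 when its expanded counterpart, the control library of day 1 round 2 or either library of day 4 was, 6 without the expanded and 16 without the control library of day 2 round 2, and no regulator was called in all of these fits. Foxm1, which activates mitotic genes, was at 11.7, 11.9, 4.7, 5.26 and 12.4 CPM in control and 1.24, 1.24, 4.19, 0 and 5.62 CPM in expanded libraries (log2 fold change -2.26, SE 0.46, adjusted p = 0.0186 by edgeR). The expanded values were lower in each pair of day and round. E2f3, an activating E2F factor, fell (log2 fold change -1.84, SE 0.34, adjusted p = 0.0124 by edgeR), as did Pkmyt1, a kinase that restrains Cdk1 (log2 fold change -1.44, SE 0.29, adjusted p = 0.0181 by edgeR). Each of these 3 calls was lost without the expanded library of day 1 round 2, with adjusted p of 0.0946, 0.064 and 0.0783. Cdkn1a, which encodes the CDK inhibitor p21, was at 426, 451, 413, 413 and 434 CPM in control and 333, 457, 492, 445 and 469 CPM in expanded libraries, with overlapping arms (log2 fold change 0.05, SE 0.13, adjusted p = 0.867 by edgeR). Ccnd1 (log2 fold change -0.10, SE 0.15, adjusted p = 0.738 by edgeR) and Myc (log2 fold change 0.56, SE 0.19, adjusted p = 0.105 by edgeR) did not pass the test.

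Keratinocyte cluster 9 (897 control and 1238 expanded cells) moved the other way for the S genes. It was led by Krt1, Krt77 and Cst6, genes of the suprabasal layer and the upper follicle, and also expressed the basal keratins, so it has no class name. In expanded libraries 17 of 23 S genes tested rose and none fell, against 12.6% of the 9847 genes tested that rose. Mki67 did not pass the test, and of 26 G2M genes none rose and 2 fell, against 12.1% of all genes. The median log2 fold change was 0.97 over the S genes and 0.09 over the G2M genes.

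The genes that rose in cluster 9 act at the licensing of origins, at the fork and behind it. Mcm5 was at 15.4, 14.6, 14.3, 26.8 and 14.4 CPM in control and 35.1, 31.1, 48.6, 53.5 and 37.8 CPM in expanded libraries. All expanded libraries were above all control libraries, and the control library of day 2 round 2 stood above the other controls (log2 fold change 1.07, SE 0.14, adjusted p = 0.000929 by edgeR). Ung, a glycosylase that removes uracil from DNA, was at 7.69, 4.87, 5.71, 19.5 and 5.98 CPM in control and 25.9, 26.2, 23.6, 29.4 and 26.8 CPM in expanded libraries. The arms did not overlap (log2 fold change 1.44, SE 0.27, adjusted p = 0.00345 by edgeR). Uhrf1, which copies DNA methylation behind the fork, was at 12.8, 10.4, 11.4, 20.3 and 6.58 CPM in control and 31.8, 32.1, 32.8, 53.5 and 29.1 CPM in expanded libraries. Here too each expanded library exceeded each control library (log2 fold change 1.37, SE 0.19, adjusted p = 0.00107 by edgeR). All 6 Mcm genes were among the 17, and 13 of the 17 stayed called whichever library was left out. Cdc6, which loads the helicase at origins, rose (log2 fold change 1.22, SE 0.38, adjusted p = 0.0352 by edgeR), a call that was lost without any 1 of several libraries (adjusted p = 0.127 once control day 1 round 2 was left out). Pcna was at 127, 98.8, 111, 110.3 and 107 CPM in control and 157, 165, 142, 130.4 and 115 CPM in expanded libraries, higher in all 5 pairs, and did not pass the test (log2 fold change 0.25, SE 0.12, adjusted p = 0.138 by edgeR).

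The mitotic genes of cluster 9 changed little over all days. Mki67 was at 56.4, 62.4, 88.5, 62.4 and 67.6 CPM in control and 60.1, 42.4, 126, 97.2 and 116 CPM in expanded libraries (log2 fold change 0.20, SE 0.20, adjusted p = 0.5 by edgeR). The expanded libraries of days 2 and 4 were the highest of all and those of day 1 among the lowest. Top2a was at 81.6, 69.2, 74.2, 84.3 and 91.5 CPM in control and 97.5, 73.8, 98.5, 117 and 120.1 CPM in expanded libraries, with overlap (log2 fold change 0.20, SE 0.12, adjusted p = 0.257 by edgeR). Cdk1 (log2 fold change 0.36, SE 0.18, adjusted p = 0.169 by edgeR) and Ccnb1 (log2 fold change 0.06, SE 0.33, adjusted p = 0.927 by edgeR) did not pass the test. Cenpf, a kinetochore protein, was at 37, 34.4, 62.8, 51.7 and 54.4 CPM in control and 28.4, 20.6, 39.3, 27.1 and 47.5 CPM in expanded libraries. It was lower in the expanded library of all 5 pairs and fell (log2 fold change -0.63, SE 0.15, adjusted p = 0.0117 by edgeR). Ube2c, which loads ubiquitin for the anaphase-promoting complex, also fell (log2 fold change -0.85, SE 0.25, adjusted p = 0.0257 by edgeR), a call lost without the control library of day 1 round 1 (adjusted p = 0.0887) and without 4 others.

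**Figure D4:**
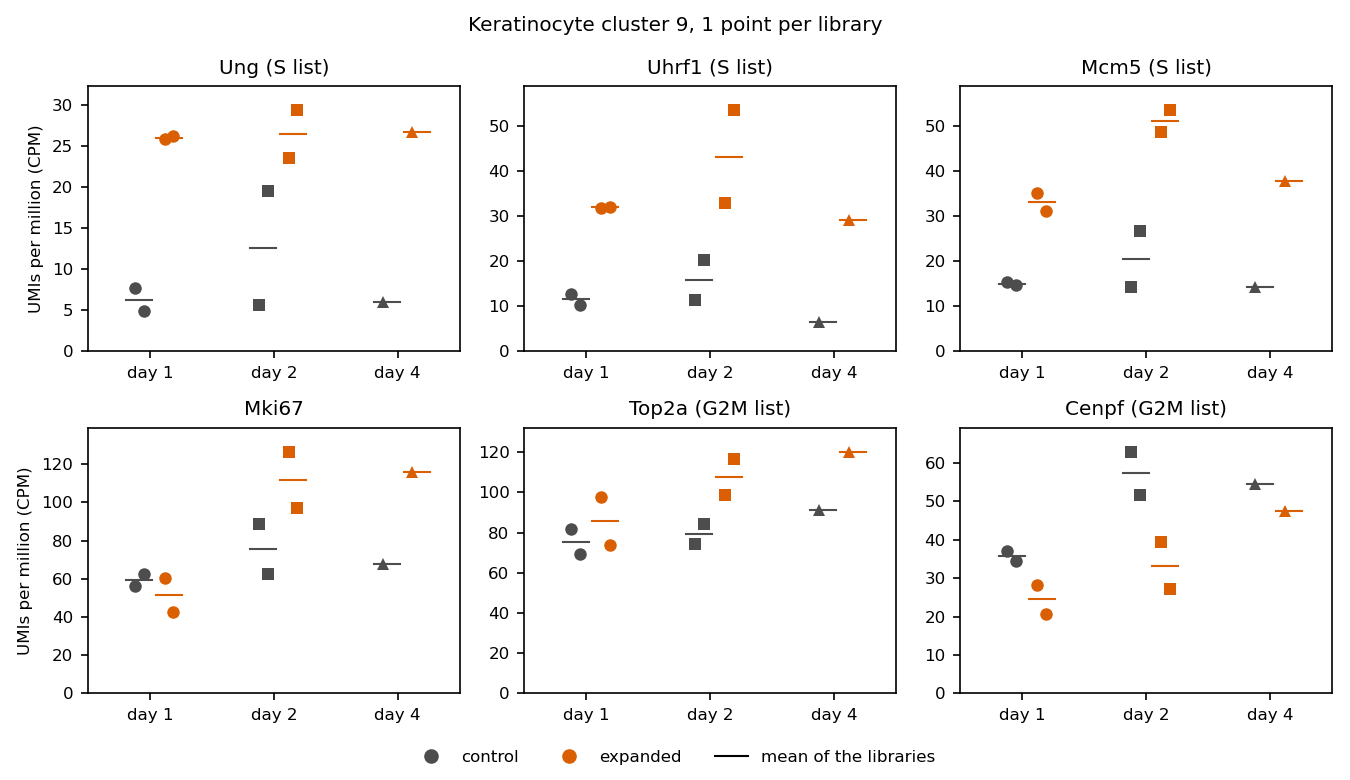
Level (CPM) of 6 members in keratinocyte cluster 9, with a point per library, a bar for the mean and the arms side by side on days 1, 2 and 4; round 1 is left and round 2 right. Expanded points of Mcm5, Ung and Uhrf1 lie above all control points on each day, while those of Cenpf are lower in each pair.

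By day, 12 S genes of cluster 9 rose on day 1 (5.52% of all genes) while 4 G2M genes fell (6.02% of all genes). On day 2 edgeR called no member (0.0609% of all genes), with 11 S genes and 3 G2M genes at an unadjusted p under 0.05. On day 4 it called none (0% of all genes), with 14 S and 6 G2M genes at an unadjusted p under 0.05. The G2M median was -0.47 on day 1, 0.25 on day 2 and 0.60 on day 4. No G2M gene passed the test of the day 2 or day 4 effect against that of day 1, with 7 and 11 at an unadjusted p under 0.05.

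At matched depth S-positive cells made up 20.3, 19, 27.3, 29.2 and 16.3% of cluster 9 in control and 34.3, 31.7, 33.3, 34.5 and 38.3% in expanded libraries. The expanded libraries were all above the control ones, and on day 1 and day 4 by more than 10 points. G2M-positive cells made up 10.2, 11.3, 18.2, 17.7 and 12.2% in control and 11.8, 8.9, 33.3, 23.6 and 28% in expanded libraries. The expanded share was close to the control share on day 1 and above it on days 2 and 4. Unthinned shares were 76.0% and 89.4% for S and 43.9% and 68.0% for G2M, at median depths of 10357 and 16204 UMIs, and 28 control and 21 expanded cells were too shallow to thin. In thinned sums 3 of 10 testable S genes rose (Mcm3, Mcm7 and Tipin; 5.04% of all genes) and none of 8 G2M genes passed the test, with 2 at an unadjusted p under 0.05. With single hashed mice as replicates (6 against 6), 15 of 18 S genes rose (16.7% of all genes).

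Cluster 9 has a larger and a smaller part. Cluster 12 of the finer resolution, led by Fcgbp, Krt14 and Krt5, made up 68.8% of cluster 9 in control and 74.4% in expanded libraries on average. Within it 13 of 21 S genes rose (12.2% of all genes) and Cenpf and Ube2c fell (13.6% of all genes). On day 1, 5 S genes rose (4.81% of all genes), and Mki67 and 11 of 25 G2M genes fell (7.02% of all genes), with a G2M median of -1.04. Its G2M-positive share on day 1 was 13.3% and 11.0% in expanded libraries, against 39.7% and 29.7% on day 2 and 36.96% on day 4, where the control range over all days was 14.7% to 21.4%. In the smaller part, cluster 30 of the finer resolution, few members passed the filter on low counts: none of 9 S genes passed edgeR's test, and of 2 G2M genes Top2a rose, a call lost with the replicate block. In the whole of cluster 9, 12.6% of all genes rose, so this single call is not shown to exceed the share of all genes. S-positive cells there were 10.6% ± 1.4 in 4 control and 17.7% ± 3.8 in 3 expanded libraries, without overlap, and G2M-positive cells 3.3% ± 2.6 and 3.5% ± 3.6. The summed level of 8 fibroblast markers in cluster 9 ranged from 411 to 5223 CPM in control and from 13 to 665 CPM in expanded libraries, lower on average for all 8; its part in the result was not tested.

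Regulators of cluster 9 moved in both directions, with 10 of 47 higher and 7 lower, where 12.6% of all genes rose and 12.1% fell, so that the share of lower regulators is near that of all genes. The number higher was 6 without the control library of day 1 round 2, and the number lower was 3 or 4 without either library of day 4, either expanded library of day 1 or the control library of day 1 round 2. Cdkn1a was at 800.2, 915, 888, 550.03 and 795 CPM in control and 312, 398, 401, 341 and 399 CPM in expanded libraries. Every expanded library lay below every control library (log2 fold change -1.20, SE 0.16, adjusted p = 0.000765 by edgeR), and it fell in thinned sums as well (log2 fold change -0.99, edgeR adjusted p = 0.000973). Mybl2, a Myb factor of the S to G2 passage, rose (log2 fold change 1.37, SE 0.35, adjusted p = 0.0151 by edgeR), a call lost without the control library of day 1 round 2 (adjusted p = 0.0543) or either library of day 4. Ccne2, a cyclin of S phase entry (log2 fold change 1.03, SE 0.25, adjusted p = 0.012 by edgeR), and Ccnd1, a cyclin of G1 (log2 fold change 0.71, SE 0.16, adjusted p = 0.00807 by edgeR), rose too. Myc did not pass the test (log2 fold change -0.65, SE 0.23, adjusted p = 0.0584 by edgeR).

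**Figure D5:**
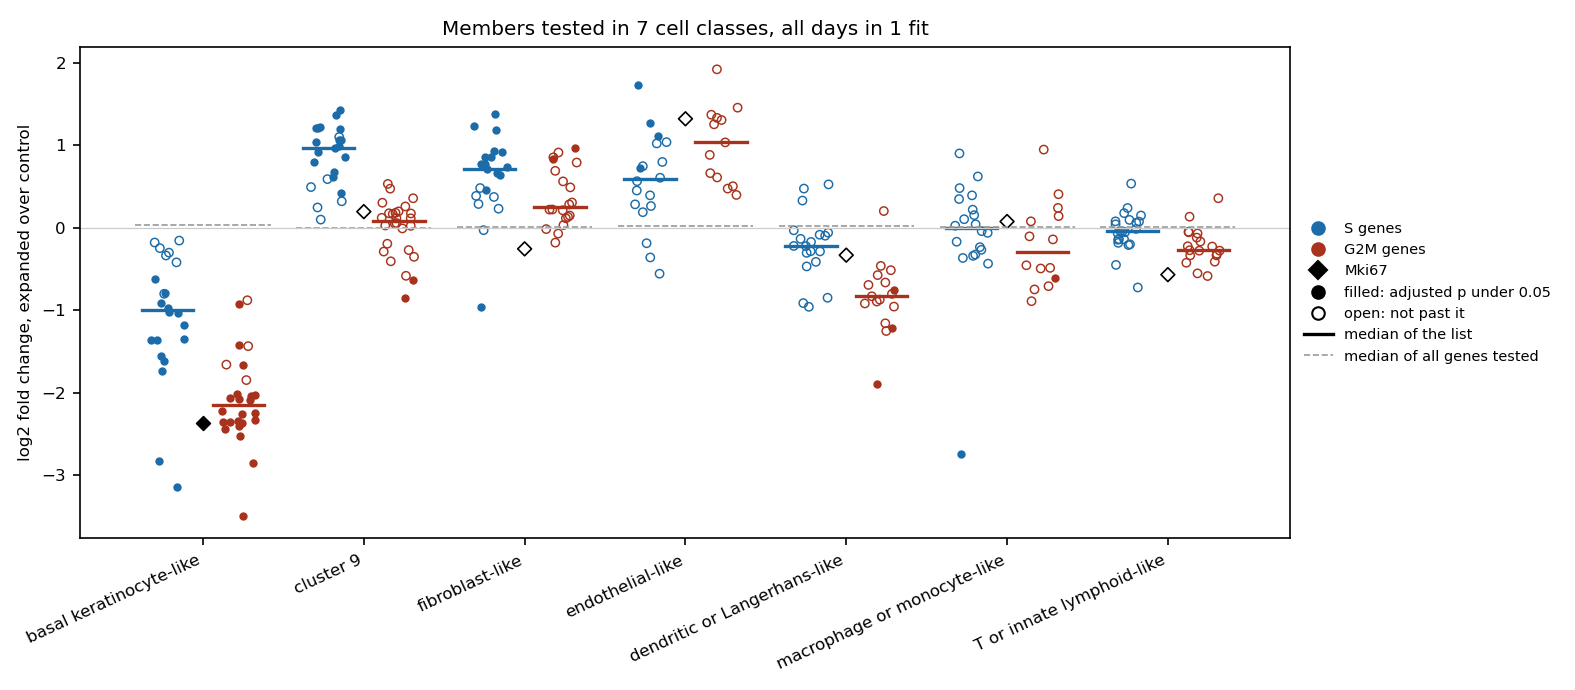
Log2 fold change (expanded over control) of each tested S gene, Mki67 and each tested G2M gene, with called genes marked. Shown are clusters 3 and 9 and the fibroblast, endothelial, dendritic or Langerhans, macrophage or monocyte and T or innate-lymphoid-like classes. S genes lie below 0 in cluster 3 and above 0 in cluster 9 and, for 19 of 21, in fibroblast-like cells; G2M genes lie below 0 in cluster 3 (median -2.15).

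Fibroblast-like cells (10484 control and 2122 expanded) showed higher S genes at low levels. In expanded libraries 14 of 21 S genes tested rose and Ung fell, against 18.2% and 18.1% of the 12384 genes tested. Mki67 did not pass the test, and 2 of 20 G2M genes rose and none fell. Medians were 0.71 over the S and 0.25 over the G2M genes, against 0.01 over all genes. Mcm5 was at 1.79, 0.983, 0.346, 3.29 and 2.62 CPM in control and 4.73, 3.37, 5.62, 4.85 and 10.2 CPM in expanded libraries. The arms did not overlap, and the expanded library of day 4 was the highest (log2 fold change 1.38, SE 0.38, adjusted p = 0.0169 by edgeR). Uhrf1 (log2 fold change 1.24, SE 0.39, adjusted p = 0.0286 by edgeR) and Chaf1b, a chaperone that places histones on new DNA (log2 fold change 1.19, SE 0.37, adjusted p = 0.0274 by edgeR), rose. Pcna was at 90.1, 74.7, 83.1, 62 and 61.8 CPM in control and 118, 155, 105, 89.4 and 98.6 CPM in expanded libraries, higher in all 5 pairs (log2 fold change 0.38, SE 0.15, adjusted p = 0.0668 by edgeR).

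Among the mitotic genes of fibroblast-like cells, Ckap2, a spindle protein, was at 2.53, 2.58, 1.85, 3.1 and 4.01 CPM in control and 4.53, 9.31, 5.89, 3.64 and 8.15 CPM in expanded libraries, higher in all 5 pairs (log2 fold change 0.97, SE 0.25, adjusted p = 0.0118 by edgeR). Kif23 rose as well (log2 fold change 0.83, SE 0.24, adjusted p = 0.0217 by edgeR), a call lost without the expanded library of day 1 round 2 (adjusted p = 0.0639) or without either library of day 4. Mki67 was at 5.16, 4.18, 1.38, 9.56 and 10.3 CPM in control and 2.91, 2.29, 8.16, 2.02 and 22.2 CPM in expanded libraries (log2 fold change -0.25, SE 0.47, adjusted p = 0.708 by edgeR). In both arms the library of day 4 was the highest. Top2a (log2 fold change 0.12, SE 0.59, adjusted p = 0.903 by edgeR), Cdk1 (log2 fold change 0.91, SE 0.62, adjusted p = 0.274 by edgeR) and Ccnb1 (log2 fold change 0.56, SE 0.60, adjusted p = 0.495 by edgeR) were likewise highest on day 4 in both arms and did not pass the test.

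G2M-positive fibroblast-like cells were 0.818, 1.01, 0.691, 1.34 and 2.1% in control and 1.5, 1.57, 2.2, 1.41 and 7.49% in expanded libraries, and S-positive cells 9.92, 8.29, 9.25, 7.95 and 7.38% and 15.3, 18.5, 12.4, 18.3 and 17.6%. The S shares did not overlap, whereas only the expanded library of day 4 stood clearly apart for G2M. That library's G2M share exceeded the 1.1% to 3.8% of expanded Schwann-like cells, and the other expanded shares did not. The expanded S shares were not clearly above the S share of Schwann-like cells given above, and the control S shares lay below its mean. The higher S share is therefore not shown to mark more cells in S phase. With single hashed mice of day 4, the G2M share was 1.33% to 3.14% in 4 control mice (median 1.86%) and 8.77% to 13.8% in 4 expanded mice (median 9.55%). All 4 expanded mice were above the 4 control mice. These mice are the ones pooled in the libraries of day 4, so their values are not separate from the library values. Of the fibroblast-like cells of hashed libraries, 51.3% could be assigned to a mouse. The expanded library of day 4 held 10, 184, 79 and 4 such cells in its clusters 0, 1, 5 and 15, so each expanded mouse share rests on few cells. All 4 expanded mice also lay above the 7.49% of their pooled library, so its cells without a mouse had a lower share. Unthinned shares were 61.8% and 84.2% for S and 9.29% and 20.9% for G2M, and 178 control and 45 expanded cells were too shallow to thin.

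In thinned sums Mcm7, Pcna, Clspn and Tipin rose, 4 of 9 testable S genes, against 13% of all genes, and with mice as replicates (14 against 10) 10 of 12 rose, against 25.9%. The call of Mcm5 was lost without the control (adjusted p = 0.0576) or the expanded library of day 4 (adjusted p = 0.0625), and the number of called members, 17, was 9 without either of them. The call of Uhrf1 was lost without any 1 of 6 libraries (adjusted p of 0.0519 to 0.0971), and so was that of Chaf1b (0.0533 to 0.12). That of Ung was lost without the control library of day 1 round 1 (adjusted p = 0.067).

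Different clusters held most of this class in each arm. Cluster 0, led by collagen genes, was 50.3% of fibroblast-like cells in control and 7.88% in expanded libraries, cluster 1, led by Tnc and Tnfrsf11b, 21.2% and 60.9%, cluster 5 17.2% and 28.9%, and cluster 15, led by Sult1e1, 11.3% and 2.25%, all without overlap. Within cluster 5, led by Igfbp2 and Cadps, 7 of 15 S genes rose (10.7% of all genes), 2 without either library of day 4. Within cluster 1 no S gene rose, and Pclaf, Mki67, Cenpf, Kif11 and Smc4 fell (12.5% of all genes), of which Mki67 stayed called in every fit without 1 library. The number of members tested in cluster 1 is not given here, so these falls are not shown to exceed the share of all genes. Summed S levels were 186 CPM in control and 257 CPM in expanded libraries of cluster 0, and 366 CPM and 394 CPM in cluster 1.

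Of 46 tested regulators, 5 rose and 8 fell in fibroblast-like cells, where 18.2% of all genes rose and 18.1% fell, so neither count exceeds the share of all genes. The number that fell was 4 without the control library of day 2 round 1 and 5 without either library of day 1 round 1 or the expanded library of day 2 round 2. Mycn, a Myc family factor (log2 fold change 1.39, SE 0.32, adjusted p = 0.00638 by edgeR), and Cks2, a small partner of cyclin-dependent kinases (log2 fold change 1.18, SE 0.23, adjusted p = 0.00298 by edgeR), rose. Ccnd2, a G1 cyclin (log2 fold change -0.81, SE 0.18, adjusted p = 0.00599 by edgeR), Cdkn1a (log2 fold change -0.58, SE 0.17, adjusted p = 0.0209 by edgeR) and Myc (log2 fold change -0.57, SE 0.20, adjusted p = 0.0416 by edgeR) fell. The calls of Cdkn1a and Myc were lost without the control library of day 2 round 1 (adjusted p = 0.0513 and 0.0784) and without others.

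Endothelial-like cells (1573 control and 1103 expanded) had 4 S genes that rose, of 18 tested, against 5.52% of the 9470 genes tested. Gins2, part of the active helicase, was at 0.903, 2.58, 1.65, 2.41 and 2.96 CPM in control and 7.02, 6.9, 8, 11.2 and 9.82 CPM in expanded libraries. The lowest expanded library was above the highest control library (log2 fold change 1.73, SE 0.30, adjusted p = 0.00543 by edgeR). Tipin, which guards stalled forks, was at 14.5, 16.2, 9.9, 22.9 and 19.5 CPM in control and 31.6, 31.1, 40.9, 72.6 and 39.6 CPM in expanded libraries, likewise without overlap (log2 fold change 1.11, SE 0.21, adjusted p = 0.00731 by edgeR). Mcm5 (log2 fold change 1.28, SE 0.34, adjusted p = 0.0289 by edgeR) and Mcm6 (log2 fold change 0.72, SE 0.19, adjusted p = 0.0262 by edgeR) rose, both calls being lost without the control library of day 1 round 1 (adjusted p = 0.0561 and 0.0635) and without others; 2 members, Gins2 and Tipin, were called in every fit without 1 library. Pcna did not pass the test (log2 fold change -0.36, SE 0.20, adjusted p = 0.274 by edgeR).

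No mitotic gene of endothelial-like cells passed edgeR's test, with 3 of 13 at an unadjusted p under 0.05 and 1 called by DESeq2. Mki67 ranged from 0 to 24.7 CPM in control libraries and was at 1.95, 15.6, 16.9, 144 and 68.4 CPM in expanded ones (log2 fold change 1.32, SE 0.63, adjusted p = 0.191 by edgeR). Only the expanded libraries of day 2 round 2 and day 4 stood above the control range. That of day 2 round 2 holds few cells of this class, 48 in its cluster 8 and 5 in its cluster 28. With the pair of day and round as a block, 7 S genes, Mki67 and 6 G2M genes rose, against 7.17% of all genes. G2M-positive cells were 2.9, 4.35, 1.03, 1.82 and 4.91% in control and 2.24, 3.58, 2.63, 14.9 and 10.3% in expanded libraries. The same pair of expanded libraries was high, and the other 3 lay within the control range (15.2% and 34.01% on average unthinned). Over single hashed mice of day 4, the share was 3.70% to 7.79% in 4 control mice (median 6.56%). In 4 expanded mice it was 0% to 16.2% (median 15.5%), with overlap between the arms. In thinned sums none of 4 S genes and 1 G2M gene passed the test (6.17% of all genes), with 1 S gene at an unadjusted p under 0.05; 213 control and 68 expanded cells were too shallow to thin, and median depths were 5207 and 9615 UMIs.

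Of 39 regulators, 2 rose and 8 fell in endothelial-like cells, where 6.37% of all genes fell. The number that fell was 3 without the expanded library of day 2 round 2, 4 without the control library of day 1 round 1, the expanded library of day 1 round 2 or either library of day 4, and 5 without the control library of day 1 round 2 or the expanded library of day 2 round 1; the number that rose was 1 without either library of day 4. Cks1b, a partner of cyclin-dependent kinases, rose (log2 fold change 1.22, SE 0.27, adjusted p = 0.0141 by edgeR), a call lost without either library of day 4 (adjusted p = 0.0603 and 0.0611). The growth arrest genes Gadd45b (log2 fold change -1.22, SE 0.26, adjusted p = 0.0114 by edgeR) and Gadd45g (log2 fold change -1.05, SE 0.19, adjusted p = 0.00664 by edgeR) fell. Cdkn1a fell too (log2 fold change -0.79, SE 0.21, adjusted p = 0.0317 by edgeR), and this call was lost without the control library of day 1 round 1 (adjusted p = 0.0635) and without others. Myc fell (log2 fold change -0.48, SE 0.14, adjusted p = 0.0449 by edgeR), a call lost without any 1 of 9 libraries (adjusted p of 0.054 to 0.117).

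In dendritic or Langerhans-like cells (2400 control and 825 expanded) 3 of 17 G2M genes fell and none rose, against 9.19% of the 9227 genes tested that fell. No S gene of 19 passed edgeR's test, with 1 at an unadjusted p under 0.05 and none called by DESeq2. Ube2c was at 6.47, 12.1, 14.4, 27.5 and 62.7 CPM in control and 4.43, 1.17, 3.04, 13.8 and 16.4 CPM in expanded libraries. It was lower in the expanded library of each pair, and the call was lost without the control library of day 4 (adjusted p = 0.0515) (log2 fold change -1.90, SE 0.38, adjusted p = 0.0099 by edgeR). Smc4, a condensin subunit that compacts chromosomes, was at 60.6, 83, 71.7, 142 and 114 CPM in control and 51, 58.3, 61.2, 70.6 and 82.7 CPM in expanded libraries, lower in 5 of 5 pairs (log2 fold change -0.75, SE 0.16, adjusted p = 0.0133 by edgeR). Ccnb2, a B cyclin, fell (log2 fold change -1.22, SE 0.32, adjusted p = 0.0284 by edgeR), a call lost without 4 of the libraries, among them the control library of day 1 round 2 (adjusted p = 0.0696). The number of members called was 2 without that library or without either expanded library of day 2, and 6 without the expanded library of day 1 round 1. With mice as replicates 6 of 9 G2M genes fell, against 18% of all genes. The G2M-positive share was 12.2% ± 3.3 in control and 9.5% ± 2.4 in expanded libraries (n = 5 each), lower in 4 of 5 pairs (51.9% and 58.0% unthinned), and 69 control and 15 expanded cells were too shallow to thin. Cluster 6, led by Mmp12 and Mgl2, held 82.7% of the class in control and 59.6% in expanded libraries, and cluster 19, led by Ccl22 and Cd207, the rest. Of 39 regulators, Skp2 rose (7.71% of all genes) and Btg1, Btg2 and Cks2 fell, of which Btg1, an antiproliferative gene, did so in every fit without 1 library (log2 fold change -0.74, SE 0.14, adjusted p = 0.00799 by edgeR). Skp2 lost its call in 8 of these 10 fits.

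Macrophage or monocyte-like cells (3120 control and 2641 expanded) had 1 S and 1 G2M gene that fell, of 20 and 14 tested, against 12.5% of the 10300 genes tested. Cdc6 was at 13.5, 9.98, 13.4, 4.06 and 11 CPM in control and 2.15, 1.27, 0.724, 1.85 and 2.5 CPM in expanded libraries. The arms did not overlap, and the call held in every fit without 1 library (log2 fold change -2.74, SE 0.41, adjusted p = 0.0029 by edgeR). No other S gene passed the test; Mcm5 had a log2 fold change of -0.04, and the median over the S genes tested was -0.01. Smc4 fell (log2 fold change -0.60, SE 0.14, adjusted p = 0.0142 by edgeR) without overlap of the arms, a call lost without either library of day 4 (adjusted p = 0.063 and 0.0579). Mki67 was at 25.8, 21.1, 21.6, 26.7 and 54.8 CPM in control and 25.3, 18.4, 35.7, 25.5 and 75.2 CPM in expanded libraries, the library of day 4 being the highest of each arm (log2 fold change 0.08, SE 0.16, adjusted p = 0.763 by edgeR). G2M-positive cells were 5.7% ± 1.5 in control and 4.1% ± 1.5 in expanded libraries (n = 5 each; 22.3% and 41.03% unthinned), lower in all 5 pairs within overlapping ranges. Cluster 2, led by Chil3 and Arg1, made up 22.2% of the class in control and 82.7% in expanded libraries, and cluster 4, led by complement genes, 77.8% and 17.3%. Within cluster 2, Cdc6 was not among the genes called, and Cenpa fell, a call kept in every fit without 1 library. Cenpa was the only member called there. As 12.5% of all genes fell in the whole class, this call is not shown to exceed the share of all genes. Cluster 4 had enough cells in 3 expanded libraries, too few to test. Of 39 regulators tested in the whole class, 7 rose (9.79% of all genes) and 7 fell, with 12.5% of all genes that fell. Without either library of day 4 the numbers were 1 and 3, and they ranged from 1 to 7 and from 3 to 6 over the libraries left out. Those that rose included Gadd45a (log2 fold change 1.35, SE 0.31, adjusted p = 0.014 by edgeR), which lost its call without either library of day 4 (adjusted p = 0.0508 and 0.0542), and Skp2, a subunit of the ligase that degrades CDK inhibitors (log2 fold change 1.31, SE 0.40, adjusted p = 0.0379 by edgeR), which lost it without any 1 of 7 libraries (adjusted p of 0.0554 to 0.111). Of those that fell, Myc (log2 fold change -1.29, SE 0.24, adjusted p = 0.00633 by edgeR) kept its call in every such fit, and Ccnd1 (log2 fold change -0.80, SE 0.26, adjusted p = 0.0459 by edgeR) lost it without any 1 of 9 libraries (adjusted p of 0.0644 to 0.127).

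T or innate-lymphoid-like cells (1953 control and 1983 expanded) had high summed levels of the members in both arms. No S gene of 22, no G2M gene of 19 and not Mki67 passed edgeR's test, which called 0.767% of the 8740 genes; 2 S genes and 1 G2M gene were at an unadjusted p under 0.05 and DESeq2 called none. Mki67 was at 76.7, 28.1, 107, 112 and 265 CPM in control and 54.9, 42, 85.6, 52.9 and 158 CPM in expanded libraries (log2 fold change -0.57, SE 0.24, adjusted p = 0.355 by edgeR). Values on day 4 were the highest of each arm. Top2a was at 84.8, 38.6, 91.1, 162 and 269 CPM in control and 99, 51, 111, 90.2 and 154 CPM in expanded libraries, with full overlap (log2 fold change -0.32, SE 0.26, adjusted p = 0.652 by edgeR). G2M-positive cells were 28.1% ± 3.8 in control and 29.2% ± 5.6 in expanded libraries (n = 5 each; 48.3% and 59.2% unthinned). In cluster 13, led by Trdc, a gene of the gamma delta T cell receptor, the share was 26.4% ± 5.9 in control and 36.2% ± 9.7 in expanded libraries, higher in 4 of 5 pairs (46.3% and 61.4% unthinned). In the Foxp3 cluster it was 49.6% ± 6.65 and 44.3% ± 6.90 (n = 4 each; 54.4% and 67.1% unthinned). The libraries of the arms overlapped in both clusters. In the whole class, the S-positive share over single hashed mice averaged 31.6% in control and 38.9% in expanded mice (n = 14 each), with overlap. On day 1 it was 23.1% to 35.6% in 3 control and 39.7% to 51.9% in 3 expanded mice, without overlap. On days 2 and 4 the mice of the arms overlapped, and the shares were not tested.

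The remaining tested classes had few members above the filter on low counts. In cluster 17, led by the matrix genes Acan and Hapln1, Mcm6, Rrm1 and Rrm2 fell, 3 of 9 S genes tested (1.07% of all genes), of which Mcm6 kept its call in every fit without 1 library. The number was 1 without the control library of day 1 round 2, of day 2 round 2 or of day 4, and 1 with the replicate block. It was 32 when no filter on low counts was used (13 S genes, Mki67 and 18 G2M genes, all lower). The share of all genes called without the filter is not given here. G2M-positive cells of cluster 17 were 8.0% ± 6.5 in 5 control and 2.8% ± 0.9 in 4 expanded libraries, with overlap. In pericyte or smooth-muscle-like cells Tipin rose and Rrm1 fell, of 7 S genes (19.4% of all genes called), both calls being lost without either library of day 4, when the count fell to 0. No member passed edgeR's test in lymphatic-endothelial-like cells (8 S and 1 G2M gene tested; 11.7% of all genes called), Schwann-like cells (6 and 1; 0.212%), melanocyte-like cells (6 and 1; 0.451%), cluster 7 (11 and 2; 7.51%) or cluster 26 (3 and 1; 6.92%). At an unadjusted p under 0.05 the numbers were 2, 1, 0, 4 and 0, and DESeq2 called none in any of these 5.

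The lists also differed in how often they met in the same thinned cell. In cluster 3, 76.0% of 225 G2M-positive control cells and 40.2% of 102 expanded ones were also S-positive. In all cells of cluster 24 of the finer resolution these shares were 83.4% of 181 and 38.5% of 26. In cluster 9 the order was the reverse, with 44.6% of 112 control and 61.1% of 185 expanded cells. Dendritic or Langerhans-like cells had 33.4% of 299 and 33.3% of 75, macrophage or monocyte-like cells 22.3% of 157 and 21.6% of 102, and T or innate-lymphoid-like cells 38.4% of 484 and 46.9% of 507. These shares pool the cells of an arm and were not tested.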

How the data were processed

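The authors deposited UMI counts per gene and cell, made with Cell Ranger 6.1.2 on mm10 per the submitters' processing notes; filters before deposit are not given in the sources used here. Cells needed 200 genes and 500 UMIs or more, with a mitochondrial share of 10% or less. Doublets were removed with scrublet, which marked under 0.5% of cells in 4 libraries, and by cells carrying more than 1 hashtag in the 8 hashed libraries. Those 4 were the control library of day 2 round 1 and the expanded libraries of day 2 rounds 1 and 2 and of day 4. On day 4, scrublet marked 0.0584% of expanded and 2.42% of control cells, so doublets may remain unevenly between the arms. Cells were normalised and clustered with scanpy 1.11.5 (2000 variable genes, 30 principal components, 15 neighbours, Leiden resolution 1; 2 as the alternative). For each class, sums of UMI counts over the cells of a library (20 cells or more) were tested in R 4.3.3 with edgeR 4.0.16 (TMM, quasi-likelihood, day and arm as terms, Benjamini-Hochberg over all genes tested, threshold 0.05). CPM are these sums scaled to a common total. DESeq2 1.42.0, thinned cells, doublets kept, no count filter, single mice as replicates and each library left out served as alternatives. The round number pairs the arms, since each round was sequenced together; deviations of paired libraries correlated between -0.08 and 0.34, with 16 of 24 values over 0.1. The members and lists were chosen with earlier results of these data known. Named genes follow a rule: the 6 with printed promoters, the called members with the 3 largest changes per list and class, the 3 called regulators with the largest changes, and Cdkn1a, Ccnd1 and Myc; genes named outside it were chosen after their values were seen, and values that did not pass the test are not all printed. On counts simulated from these libraries, a log2 change of 1 was recovered for 37.4% to 83.0% of genes per class and a change of 2 for 92.8% to 100%. Of the calls in these simulated counts, 3.01% to 8.77% per class were false, with the highest share in cluster 3.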

Additional observations from a re-analysis of the deposited data

Results flagged for a closer look

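In 8 of 132 groups of libraries checked, the highest or lowest library stood far from the others of its group, and chance gives about 1 in 20. In fibroblast-like cells the expanded library of day 4 had a G2M-positive share of 7.49%, against 1.41% to 2.20% in the other expanded libraries. The same library held Cdk1 at 18.5 CPM (others 0 to 4.42) and Ccnb1 at 10.2 CPM (others 0 to 1.62), and the control library of day 4 held Cdk1 at 6.38 CPM (others 0 to 1.65). In cluster 9 control day 2 round 2 held Mcm5 at 26.8 CPM, and the other controls held 14.3 to 15.4 CPM. In macrophage or monocyte-like cells Mki67 was at 54.8 CPM in the control library of day 4, against 21.1 to 26.7 CPM. In cluster 26, a fibroblast-related cluster led by Smim41 and Apod, the S-positive share was 32.8% in control day 1 round 2 (others 10.9% to 16.3%), and the G2M-positive share was 1.42% in the expanded library of day 1 round 2 and 0 in the others.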

How the results depend on the processing

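With the replicate block (the pair of day and round), the number of members called was 14 in endothelial-like cells against 4 without it, 1 in T or innate-lymphoid-like cells, 1 in cluster 17 and 36 in cluster 24 of the finer resolution against 10; in the other classes tested the count stayed within 1.5 times. In sums of thinned cells, which leave fewer genes to test, the numbers were 5 in cluster 3, 3 in cluster 9, 4 in fibroblast-like, 1 in dendritic or Langerhans-like and 0 in endothelial-like, macrophage or monocyte-like, pericyte or smooth-muscle-like cells and cluster 17; by day they were 9 and 1 in cluster 3 on days 1 and 4, and 1 in cluster 9 on day 1. Regulators called in thinned sums numbered 1 in cluster 3, 1 in cluster 9, 7 in fibroblast-like, 5 in endothelial-like, 2 in dendritic or Langerhans-like and 4 in macrophage or monocyte-like cells. Without a filter on low counts, members called numbered 32 in cluster 17, 23 in endothelial-like, 15 in dendritic or Langerhans-like, 4 each in cluster 7, melanocyte-like and pericyte or smooth-muscle-like, and 2 each in lymphatic-endothelial-like and T or innate-lymphoid-like cells. With mice as replicates they were 6 in dendritic or Langerhans-like, 11 in fibroblast-like and 1 in macrophage or monocyte-like cells, and 5 in the last with doublets kept. The cause of these shifts was not tested. For the fits without a count filter and with doublets kept, the share of all genes called is not given here. Those counts are therefore not shown to be particular to the members.

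Without thinning, the S share in expanded minus control libraries was 12.1 points in cluster 3, 22.4 in fibroblast-like, 18.3 in endothelial-like, 17.8 in dendritic or Langerhans-like, 22.2 in macrophage or monocyte-like and 17.6 in T or innate-lymphoid-like cells, and the G2M difference 2.05, 11.6, 18.8, 6.09, 18.7 and 10.9 points in the same order, with 24.1 in cluster 9; the deeper arm was the expanded one in each. With at least 1 UMI the differences were -0.656 (cluster 3, S), 14.6 and 4.00 (fibroblast-like, S and G2M) and 0.525 (macrophage or monocyte-like, G2M), and with at least 3 UMIs 3.21 (fibroblast-like, S) and -0.0673 (macrophage or monocyte-like, G2M). Thinned to 1000 UMIs they were 3.57 (fibroblast-like, S) and 0.238 (macrophage or monocyte-like, G2M), thinned to 4000 UMIs 16.5 (fibroblast-like, S), and over mice 12.0 and -2.63 (cluster 3, S and G2M), where 22.1% of cells have a mouse.

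Leaving out each library in turn, members called ranged from 10 to 42 in cluster 3, 15 to 18 in cluster 9, 9 to 18 in fibroblast-like, 2 to 7 in endothelial-like, 2 to 6 in dendritic or Langerhans-like, 1 to 2 in macrophage or monocyte-like, 0 to 3 in pericyte or smooth-muscle-like, 0 to 1 in lymphatic-endothelial-like cells, 1 to 6 in cluster 17 and 0 to 2 in cluster 7. Under DESeq2, run for the members among the named genes, all 60 pairs of member and class kept their side of the threshold. No pair of named gene and class that passed the test changed sign under the alternatives run, and 12 that did not pass it did, among them Mki67 (log2 fold change of -0.60 to 0.12 without 1 library, 1.05 with mice as replicates) and Top2a (-0.55 to 0.47) in fibroblast-like cells and Ccnb1 in cluster 9 (-0.37 to 0.31). Day 4 has 1 library per arm, cluster 3 has 27 cells in 1 control library, and median depth differs between arms in most classes, so small differences in low genes were not detectable.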

Other observations

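Sebaceous-like cells (175 control and 113 expanded) had too few libraries to test. In 4 control libraries 24.3% ± 1.0 of their thinned cells were G2M-positive, and in the 1 expanded library with enough cells 42.3%. Of the G2M-positive cells, 58.5% of 41 in control and 77.5% of 40 in expanded libraries were also S-positive. Among T or innate-lymphoid-like cells, the Trdc cluster 13 was S-positive in 39.9% ± 7.3 of control and 46.6% ± 9.4 of expanded cells (n = 5 each), above the 29.5% ± 10.6 and 34.7% ± 6.2 of the Foxp3 cluster (n = 4 each).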
